A study of Mus musculus with 8 samples.

Results

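The unfolded protein response and the amino acid response are linked programmes that cells run when protein folding in the endoplasmic reticulum (ER) or the supply of amino acids falls short. A list of 33 genes of these programmes was followed in mouse paw skin, matched by symbol to the array's probe annotation. The list was chosen with earlier results of these data known, so its counts beside all genes are descriptions and no test. Of these, 31 were measured among 30736 genes in all. Pdia4 and Manf were not analysed, because their probe sets are shared with a neighbouring gene, Mir704 and Rbm15b. The 31 genes comprise 8 stress sensors and transcription factors, 4 feedback regulators and effectors, 8 ER chaperones and disulfide isomerases, 4 genes of ER-associated degradation, and 7 genes of amino acid synthesis, folate metabolism and transport.

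The skin came from 8 mice of 8 weeks on the C57Bl/6 background, with 1 array each. Paw lesions of 4 Krt16 null mice (2 males, 2 females) were set against normal paw skin of 4 wild-type (WT) mice (2 males, 2 females). The null allele carries LacZ in place of the Krt16 coding sequence; Krt16 encodes a stress-responsive keratin of thick footpad epidermis. Each null sample is lesional and each WT sample is normal skin, and effects of the genotype and of the lesion cannot be told apart.

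Values are log2 signals after robust multi-array averaging, and differences are null minus WT on that log2 scale, from limma with sex as a covariate and Benjamini-Hochberg adjustment over all genes tested. A gene was called at an adjusted p under 0.05. The precision rests on 4 arrays a group. Krt16 itself ranged from 7.05 to 9.66 in WT and from 6.83 to 6.99 in null skin, with no overlap (difference -1.45, SE 0.44, adjusted p = 0.0618). Where the Krt16 probe set lies relative to the replaced coding sequence was not analysed here, so what the null signal, above the negative control medians of 4.26 to 4.46, stands for is not known. Keratinocyte markers were high in both groups, with array means of 10.74 to 10.96 in WT and 10.87 to 10.94 in null skin; of the 12 markers Cdh1 was called higher (0.27, adjusted p = 0.0497) and Lor, a protein of the cornified envelope, lower (-0.35, adjusted p = 0.0349), and both calls were lost without male WT 2, male null 2 or female null 2. Whole paw skin holds many cell types, and fewer cells of a type cannot be told apart from less RNA per cell.

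In the ER, the sensors Ern1 (IRE1), Eif2ak3 (PERK) and Atf6 respond to unfolded proteins. IRE1 splices Xbp1 mRNA, ATF6 is cut to release a transcription factor, and PERK phosphorylates the translation factor eIF2 alpha, which favours translation of ATF4. The eIF2 kinase GCN2 does the same when amino acids are short. Splicing, cleavage, phosphorylation and translation are not read by these gene-level signals; the mRNAs of the downstream chaperones and biosynthetic enzymes are.

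In null paw lesions 12 of the 31 genes were higher than in WT skin and 0 were lower, by limma with adjustment over all genes. All genes tested gave 7.03% called higher and 5.94% called lower. Beside the 0 lower calls, 1 gene (Herpud1) had an unadjusted p under 0.05 in that direction. The genes that rose were 7 of 8 chaperones and isomerases (Calr, Canx, Pdia3, Pdia6, P4hb, Creld2 and Hyou1), 4 of 7 amino acid and folate genes (Asns, Psat1, Shmt2 and Mthfd2), and the effector Sesn2. The rises were moderate, from 1.16-fold for Canx to 1.48-fold for Shmt2, and none reached 2-fold. Of the genes of the array called higher, 192 reached that size. No sensor, transcription factor or degradation gene was called. The shares over all genes, here and below, include 13701 genes with a mean at or under the highest negative control median. Of the 31 genes 0 lie there. With genes under the negative control median left out, 2195 genes were called higher and 2031 lower by limma, and 13 of the 31 higher. That filter cut at 4.33, the mean of the array medians, and not at the highest median of 4.46. How many genes it kept was not taken, so no share is given. It called more genes than the 2160 higher and 1827 lower of the full set among fewer tested, so its shares exceed 7.03% and 5.94%.

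The median difference of the 31 genes was 0.17, against 0.01 over all genes tested. After a repeated quantile normalization it was 0.13, against -0.0045 over all genes. Without male null 2 it was 0.13, and without male null 1 it was 0.22. Of the 31, 26 lay above 0, as did 16795 of all 30736 genes. In 13 genes every null mouse lay above every WT mouse, where 10.1% of all genes did so. In 1 gene, Herpud1, every null mouse lay below every WT mouse, where 8.75% of all genes did so.

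**Figure D1:**
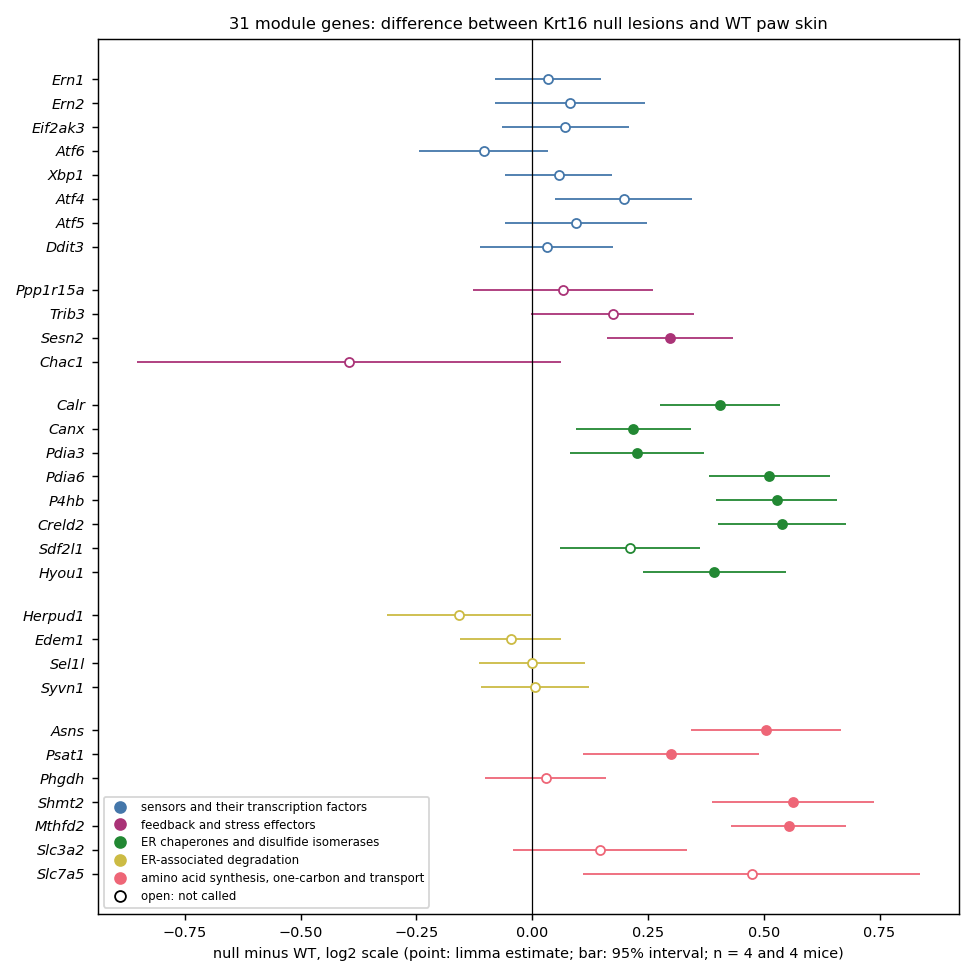
Null minus WT difference (log2) with its 95% confidence interval for each of the 31 measured genes, grouped by role; filled points passed the adjusted threshold. The called genes sit among the chaperones and the amino acid and folate genes, with Sesn2 the called effector, and the differences run from -0.40 (Chac1) to 0.56 (Shmt2).

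Among the 8 chaperones and isomerases the median difference was 0.40. P4hb, protein disulfide isomerase, which forms and reshuffles disulfide bonds and is also a subunit of collagen prolyl hydroxylase, read 9.06 and 9.14 in male WT, 9.14 and 9.06 in female WT, 9.65 and 9.75 in male null and 9.59 and 9.52 in female null mice. The lowest null mouse lay well above the highest WT mouse. The WT mean was 9.10 ± 0.05 (SD, n = 4) and the null mean 9.63 ± 0.09, which differed by 0.53 (SE 0.06, 1.44-fold, adjusted p = 0.000845). Pdia6, a further disulfide isomerase, read 7.75, 7.88, 7.72 and 7.75 in WT and 8.24, 8.38, 8.22 and 8.31 in null mice, a difference of 0.51 (SE 0.06, adjusted p = 0.000942). No WT mouse of either sex reached the null range.

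Creld2, an ER protein with isomerase activity that is induced by ER stress, read 7.25 and 7.26 in male WT, 7.17 and 7.00 in female WT, 7.69 and 7.86 in male null and 7.62 and 7.66 in female null mice. Again the groups did not overlap, and the difference was 0.54 (SE 0.06, 1.45-fold, adjusted p = 0.000963). Calr encodes calreticulin, a calcium-binding lectin chaperone that holds freshly glycosylated proteins in the folding cycle. It read 8.79, 8.94, 8.79 and 8.78 in WT and 9.27, 9.33, 9.10 and 9.21 in null mice, a difference of 0.41 (SE 0.06, 1.32-fold, adjusted p = 0.00284). Hyou1, a large chaperone of the HSP70 family and nucleotide exchange factor for BiP, read 6.69, 6.93, 6.77 and 6.68 in WT and 7.18, 7.32, 7.07 and 7.08 in null mice, with a difference of 0.39 (SE 0.07, 1.31-fold, adjusted p = 0.0071).

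Canx and Pdia3 complete the glycoprotein folding cycle: calnexin is the membrane-bound partner of calreticulin, and Pdia3 (ERp57) is the isomerase that both recruit. Their rises were the smallest of the called genes. Canx read 8.86, 8.95, 8.86 and 8.96 in WT and 9.12, 9.19, 9.06 and 9.14 in null mice (difference 0.22, SE 0.05, adjusted p = 0.0314). Pdia3 read 8.77, 8.97, 8.77 and 8.95 in WT and 9.12, 9.13, 9.06 and 9.06 in null mice (difference 0.23, SE 0.06, adjusted p = 0.0493). In both genes the null mice lay just above the highest WT mouse. Both calls were lost without any mouse other than female WT 2, with adjusted p from 0.0532 to 0.109 for Canx and from 0.0589 to 0.141 for Pdia3. A repeated quantile normalization lowered the differences of both to 0.13 (adjusted p = 0.166 and 0.171).

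Sdf2l1, which works with the ER co-chaperone Dnajb11, was the chaperone gene that was not called. It read 6.59, 6.70, 6.59 and 6.35 in WT and 6.78, 6.91, 6.70 and 6.68 in null mice, so 1 WT mouse reached the null range (difference 0.21, SE 0.07, adjusted p = 0.0727; 0.0451 with the replicate number as a block).

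**Figure D2:**
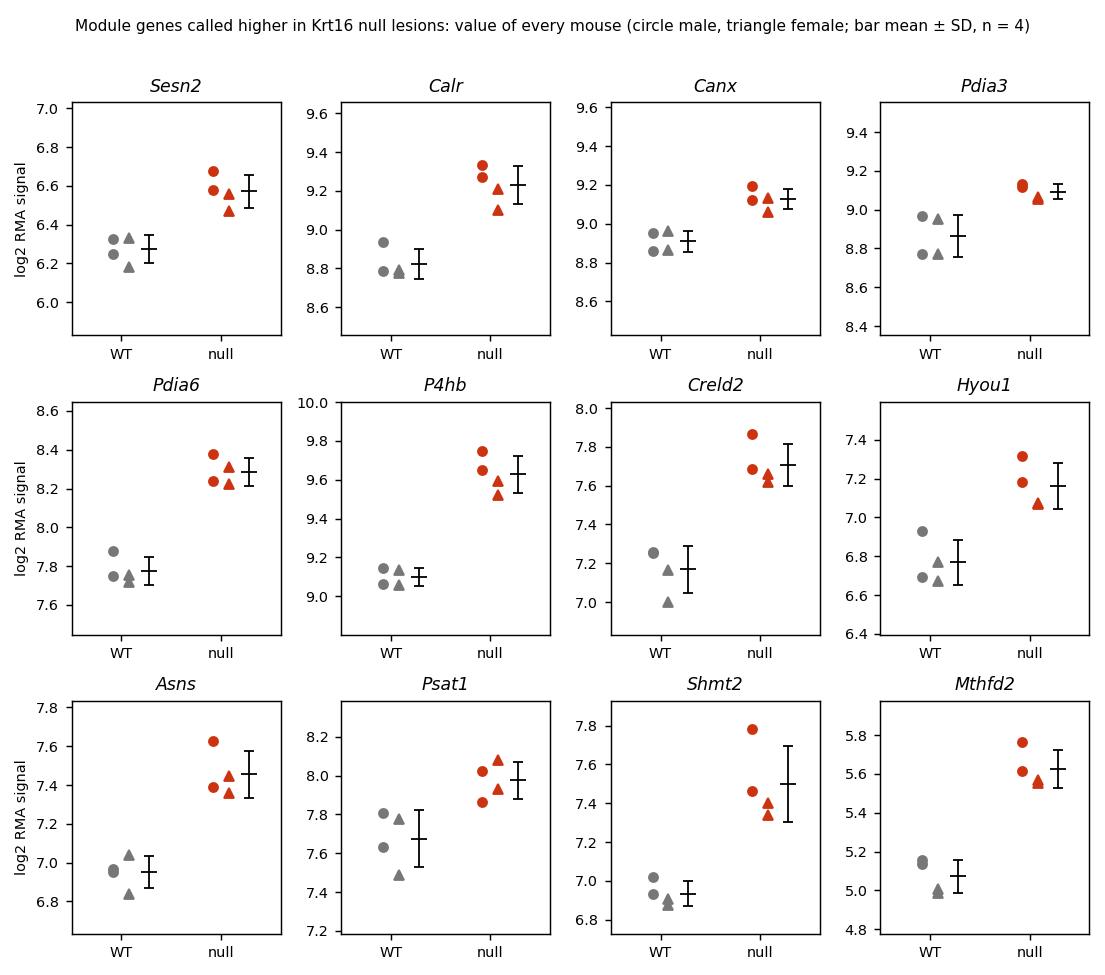
Log2 signal of the 12 called genes in each of the 8 mice, by genotype and sex, 1 panel a gene; circles are males, triangles females, and bars the mean ± SD (n = 4); the axes do not start at 0 and differ between panels. In each panel the 4 null mice lie above the 4 WT mice, with wide gaps for P4hb and Mthfd2 and narrow ones for Pdia3 and Psat1.

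The chaperone genes are textbook targets of ATF6 and XBP1 through the ER stress element, in which CCAAT and CCACG are separated by any 9 bases. The windows from 250 bases before to 50 bases after each RefSeq start (GRCm38.p6) were searched for it on both strands. Of the 33 listed genes 28 have a window, and 5 of them (17.9%) hold the element: Calr, Canx, Creld2, Pdia6 and Syvn1. Among all genes with a window 37 of 27025 (0.137%) hold it, and among all windows 39 of 32851 (0.119%). The list was made of known genes of these programmes, so this contrast is a description and no test. Herpud1 holds a second form (ATTGG, any 1 base, CCACG), found in 12 windows (0.0365%). The called genes Calr, Canx, Creld2 and Pdia6 are printed below with Syvn1 and Herpud1, which carry an element and were not called, and with Hspa5 (BiP), a non-member and the classical example. Each is shown 5′ to 3′ on the gene's own strand with 25 bases on either side, the element in capitals. In Calr and Creld2 the element lies on the opposite strand, so it reads there as CGTGG, 9 bases, ATTGG.
Calr: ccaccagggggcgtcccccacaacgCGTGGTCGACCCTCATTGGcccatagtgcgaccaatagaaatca
Canx: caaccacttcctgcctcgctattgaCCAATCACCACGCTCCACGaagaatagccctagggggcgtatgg
Creld2: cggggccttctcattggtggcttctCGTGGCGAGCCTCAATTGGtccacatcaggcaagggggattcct
Pdia6: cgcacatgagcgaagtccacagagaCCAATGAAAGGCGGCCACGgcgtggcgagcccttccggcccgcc
Syvn1: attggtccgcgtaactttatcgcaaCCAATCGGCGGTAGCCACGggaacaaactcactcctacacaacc
Herpud1: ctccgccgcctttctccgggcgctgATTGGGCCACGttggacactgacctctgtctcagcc
Hspa5: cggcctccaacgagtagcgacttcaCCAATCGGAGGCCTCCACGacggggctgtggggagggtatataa

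These stretches lie at chr8:84847050-84847118 (Calr, minus strand), chr11:50325775-50325843 (Canx, minus), chr15:88819495-88819563 (Creld2, plus), chr12:17266466-17266534 (Pdia6, plus), chr19:6046507-6046575 (Syvn1, plus), chr8:94386352-94386412 (Herpud1, plus) and chr2:34772000-34772068 (Hspa5, plus) of GRCm38.p6, each just upstream of the start. Counted from the start, with upstream positions negative, the elements begin between position -162 (Calr) and position -44 (Syvn1). Of the 37 genes that hold the full element 31 were measured, of which 8 were called higher (25.8%) and 3 lower. The 8 were the members Calr, Canx, Creld2 and Pdia6 and the non-members Hspa5, Hsp90b1, Dnajc3 and Hnrnpa3. Over the 26 measured genes with the element that are not on the list, 4 were called higher (15.4%) and 3 lower (11.5%), and their median difference was 0.02. All genes tested gave 7.03% called higher and 5.94% lower. The counts of element carriers are small, and the contrast was not tested. P4hb and Pdia3 rose with no match in their windows, and Hyou1 has no window in the table. The core TGACGTGG of the unfolded protein response element was in 222 windows (0.676%). The amino acid response element, searched only as the letters TGATGNAAT (N for any base), was in 317 (0.965%). Neither run of letters was in a window of a listed gene. Other spellings of these elements were not searched, so whether Asns or another listed gene holds one is not known here. A match is a run of letters and not a measured binding site, and no match says only that the letters are not in that window.

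**Figure D3:**
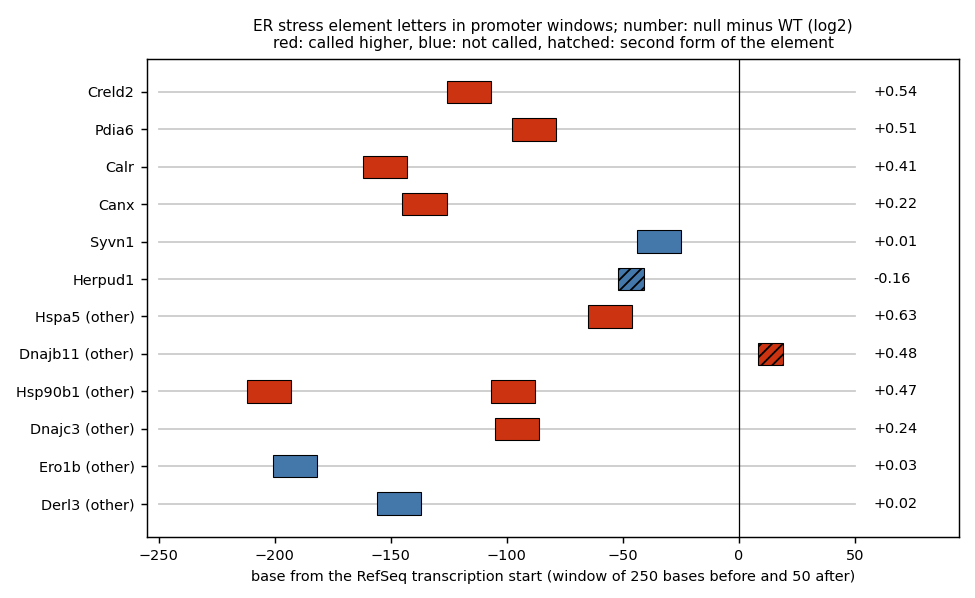
Position of each ER stress element (boxes, bases from the RefSeq start, upstream negative; hatched for the second form) in the windows of the listed genes and of other pathway genes, with the null minus WT difference (log2) of the gene printed at the right; red was called higher and blue not called. Calr, Canx, Creld2 and Pdia6 of the list were called, as were Hspa5, Hsp90b1, Dnajc3 and Dnajb11 outside it. Syvn1 and Herpud1, which also carry an element, stand at 0.01 and -0.16, and the non-members Derl3 and Ero1b were not called either.

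The amino acid and folate genes had a median difference of 0.47. Mthfd2, the mitochondrial folate dehydrogenase that passes on serine-derived carbon units, read 5.15 and 5.13 in male WT, 5.01 and 4.99 in female WT, 5.61 and 5.76 in male null and 5.57 and 5.55 in female null mice. The groups were separate in both sexes, and the difference of 0.55 (SE 0.05, 1.47-fold, adjusted p = 0.000473) had the lowest adjusted p of the 31 genes. Its signal is dim, higher than 71.4% of the array's negative control probe sets. Shmt2, the mitochondrial enzyme that splits serine into glycine and supplies that carbon unit, read 6.93, 7.02, 6.87 and 6.91 in WT and 7.46, 7.78, 7.40 and 7.34 in null mice, a difference of 0.56 (SE 0.08, 1.48-fold, adjusted p = 0.00244). The null values spread more widely than the WT values, with male null 2 the highest.

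Asns, asparagine synthetase, a classical ATF4 target, read 6.95 and 6.97 in male WT, 6.84 and 7.04 in female WT, 7.39 and 7.63 in male null and 7.36 and 7.45 in female null mice. No null mouse came down to the WT range, and the difference was 0.50 (SE 0.07, 1.42-fold, adjusted p = 0.00292). Psat1, the transaminase of serine synthesis, read 7.63, 7.81, 7.49 and 7.78 in WT and 7.86, 8.02, 7.93 and 8.08 in null mice (difference 0.30, SE 0.08, adjusted p = 0.0481). That call held in 3 of the 8 fits that left out 1 mouse (without male WT 2, male null 1 or female WT 2), and in the other 5 the adjusted p ran from 0.0751 to 0.136. Phgdh, the dehydrogenase that opens serine synthesis, was not called and stood at 7.91 ± 0.16 in WT and 7.94 ± 0.13 in null skin (difference 0.03, SE 0.06, adjusted p = 0.819).

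The transporter genes were not called. Slc7a5 (LAT1) carries large neutral amino acids as a heterodimer with Slc3a2 (4F2hc). Slc7a5 read 7.21 and 7.66 in male WT, 7.29 and 7.89 in female WT, 7.84 and 8.29 in male null and 7.85 and 7.97 in female null mice. The WT mice scattered, and female WT 2 lay within the null range. The difference was 0.47 (SE 0.16, 95% interval 0.11 to 0.84, adjusted p = 0.092), and it passed with the replicate number as a block (adjusted p = 0.0191) and without female WT 2 (0.62, adjusted p = 0.0281). Slc3a2 stood at 7.94 ± 0.09 in WT and 8.09 ± 0.15 in null skin (difference 0.15, adjusted p = 0.31).

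Of the 4 feedback regulators and effectors 1 was called. Sesn2, a stress-induced inhibitor of mTORC1 that senses leucine, read 6.25, 6.33, 6.33 and 6.18 in WT and 6.68, 6.58, 6.47 and 6.56 in null mice, with no overlap (difference 0.30, SE 0.06, 1.23-fold, adjusted p = 0.0132). Chac1, an enzyme that breaks down glutathione and is strongly induced through ATF4, had the lowest difference of the list. It read 7.43 and 7.34 in male WT, 6.56 and 7.59 in female WT, 7.04 and 6.57 in male null and 6.89 and 6.84 in female null mice. Female WT 1 was as low as the lowest null mouse, and the WT mean of 7.23 ± 0.46 carried the widest spread of the 31 genes. The difference was -0.40 (SE 0.20, 95% interval -0.85 to 0.06, adjusted p = 0.259), and without female WT 1 it was -0.64 (adjusted p = 0.00548), a call in the lower direction.

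Trib3, a pseudokinase that restrains ATF4 signalling, stood at 5.20 ± 0.07 in WT and 5.37 ± 0.14 in null skin (difference 0.17, adjusted p = 0.195). Its call also turned on a single mouse: male null 1 at 5.19 lay among the WT mice, and without it the difference was 0.25 (adjusted p = 0.0254). Ppp1r15a (GADD34), which directs the phosphatase that reverses eIF2 alpha phosphorylation, stood at 5.63 ± 0.08 and 5.69 ± 0.16 (difference 0.07, adjusted p = 0.702).

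The sensors and transcription factors had a median difference of 0.06 and 0 of 8 calls, by limma with adjustment over all genes; 1 of the 8, Atf4, had an unadjusted p under 0.05. Atf4, the transcription factor shared by both programmes, read 7.33 and 7.41 in male WT, 7.31 and 7.25 in female WT, 7.43 and 7.66 in male null and 7.56 and 7.43 in female null mice. The null mice lay above the WT mice by a narrow margin, male null 1 and female null 2 close to male WT 2. The difference was 0.20 (SE 0.07, 95% interval 0.05 to 0.35, adjusted p = 0.085), and it passed with the replicate number as a block (adjusted p = 0.0461) and without male null 1 (0.25, adjusted p = 0.0393).

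Xbp1, the substrate of IRE1, read 8.18, 8.23, 8.11 and 8.12 in WT and 8.27, 8.23, 8.24 and 8.11 in null mice, and the groups overlapped (difference 0.06, 95% interval -0.06 to 0.17, adjusted p = 0.553). The signal sums spliced and unspliced Xbp1 mRNA. For the sensors the differences were 0.03 for Ern1 (95% interval -0.08 to 0.15), 0.07 for Eif2ak3 (-0.06 to 0.21) and -0.10 for Atf6 (-0.25 to 0.04). Ern2, the IRE1 paralogue of mucous epithelia, was near background, higher than 54.8% of negative control probe sets. Ddit3 (CHOP), the transcription factor of prolonged ER stress, stood at 6.33 ± 0.07 in WT and 6.37 ± 0.08 in null skin (difference 0.03, 95% interval -0.11 to 0.17). Atf5, translated under the same control as ATF4, differed by 0.09 (95% interval -0.06 to 0.25). These intervals bound the mRNA differences and bear on neither splicing, cleavage nor phosphorylation.

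The degradation genes had a median difference of -0.02 and 0 of 4 calls, by limma with adjustment over all genes; 1 of the 4, Herpud1, had an unadjusted p under 0.05. Herpud1, an ER membrane protein of the retrotranslocation complex and itself a stress-induced gene, read 7.78, 7.80, 7.80 and 8.06 in WT and 7.63, 7.76, 7.71 and 7.71 in null mice. It was lower in every null mouse by a small margin, and the difference did not pass the test (-0.16, SE 0.07, adjusted p = 0.179). Female WT 2 stood apart from the other WT mice. Edem1, a lectin that hands misfolded glycoproteins to disposal, differed by -0.05 (adjusted p = 0.617). Syvn1 (HRD1), the ubiquitin ligase, and Sel1l, its adaptor, stood at the same mean in both groups, 6.46 for Syvn1 and 7.81 for Sel1l.

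The wider pathway was read from lists of genes outside the 31, beside the 7.03% of all genes called higher and 5.94% called lower. Of 20 other ER chaperones and oxidoreductases 6 were higher and 0 lower by limma (0 lower at an unadjusted p under 0.05 too), with a median of 0.12. Hspa5 (BiP), the HSP70 chaperone that holds the sensors inactive, read 7.81, 7.81, 7.71 and 7.73 in WT and 8.44, 8.49, 8.23 and 8.43 in null mice, a difference of 0.63 (SE 0.06, 1.55-fold, adjusted p = 0.000299). It exceeded the difference of every gene of the list. Ero1a, the oxidase that recharges disulfide isomerases, read 7.53, 7.80, 7.28 and 7.74 in WT and 8.96, 8.72, 8.86 and 8.93 in null mice, a difference of 1.28 (SE 0.11, 2.42-fold, adjusted p = 0.00026). Hsp90b1 (GRP94) and Dnajb11 rose by 0.47 and 0.48.

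Of 18 other degradation genes 4 were higher and 0 lower by limma (2 lower at an unadjusted p under 0.05; median 0.10; 2 higher and 1 lower after a repeated quantile normalization), among them Vcp, the ATPase that pulls proteins from the ER membrane, at 0.42 (adjusted p = 0.00442). Of 20 genes of ER translocation and N-glycosylation 4 were higher and 1 lower (median 0.15). The 4 became 0 without male WT 1, male null 2 or female null 1, 1 without female null 2, 2 without male WT 2, and 1 after a repeated quantile normalization or median centring. The lower gene was Sec62, a translocon subunit, at -0.40 (adjusted p = 0.0117), beside Rpn1 of the oligosaccharyltransferase at 0.27 (adjusted p = 0.0272), whose call was among those lost.

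On the amino acid side, 7 of 17 aminoacyl-tRNA synthetases were higher and 0 lower by limma (0 lower at an unadjusted p under 0.05, median 0.17). All 17 lay above 0, as did 16795 of all 30736 genes. In 15 every null mouse lay above every WT mouse, where 10.1% of all genes did so. Nars, Rars and Lars, which charge asparagine, arginine and leucine tRNAs, rose by 0.50, 0.49 and 0.48. Of 20 other amino acid and folate genes 2 were higher and 3 lower (median 0.07). Slc7a11, the cystine importer xCT, rose by 1.43 (SE 0.25, adjusted p = 0.0068) and Aldh1l2, a mitochondrial folate dehydrogenase, by 0.93 (SE 0.08, adjusted p = 0.000273). Slc43a1, a large neutral amino acid transporter, was lower at -0.61, Got1 at -0.45 and Slc1a4 at -0.27. Got1 lost its call without female null 1 (adjusted p = 0.0515).

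The other signalling genes of the integrated stress response were mixed, with 2 of 24 higher, 3 lower and a median of -0.03. Ppp1r15b, the constitutive partner of the eIF2 alpha phosphatase, stood 0.36 higher and the transcription factor Cebpb 0.28 higher. Vldlr, Sesn3 and Sesn1 were lower at -0.63, -0.53 and -0.42, so of the sestrins Sesn2 was higher and both others lower. Each of these calls was lost in some fits that left out 1 mouse, and without male null 2 or female null 1 none of the 24 genes was called by limma. Ppp1r15b lost its call without male null 2, female null 1 or female null 2, and Cebpb without male null 2 or female null 1. The call of Vldlr was lost without male WT 1, male null 2 or female null 1, that of Sesn3 without male WT 1, male null 1, male null 2, female WT 2 or female null 1, and that of Sesn1 without any mouse other than female WT 1. With the mean of its probe sets in place of the brightest, Sesn3 stood at -0.33 and was not called (adjusted p = 0.0599).

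**Figure D4:**
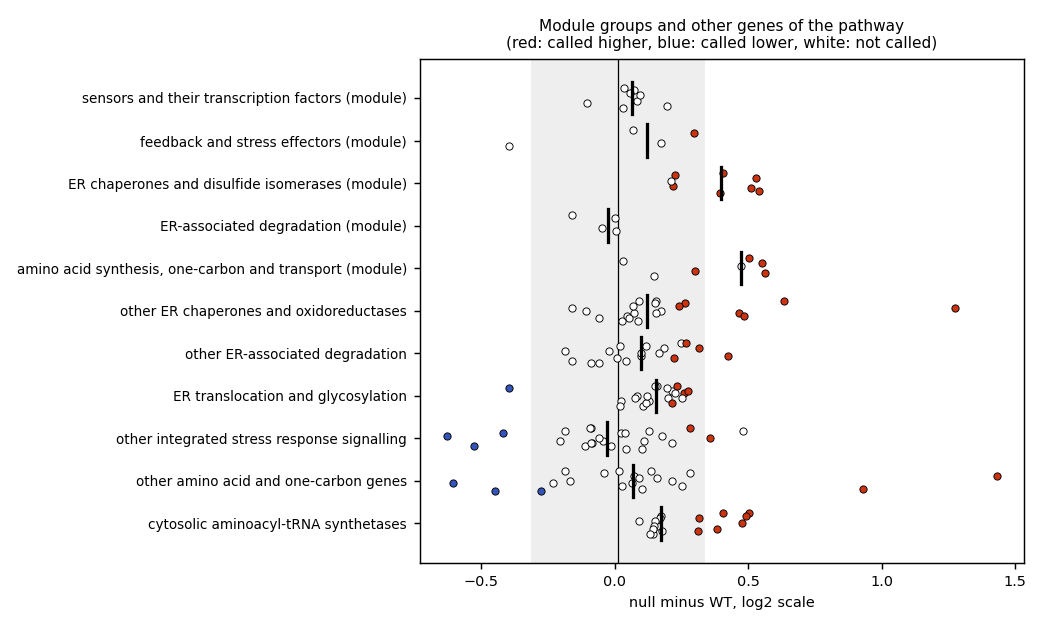
Null minus WT difference (log2) of each measured gene of the pathway lists, 1 row a list; red was called higher, blue called lower and white not called. Thick bars are list medians, the thin line is the median of all genes and the grey band spans their 5th to 95th percentile (-0.31 to 0.34). The tRNA synthetases all lie above 0, while the integrated stress response signalling genes lie on both sides.

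In all 12 called genes every null mouse lay above every WT mouse. A rise in both sexes follows from that and is no further support. The rises were 0.22 to 0.64 in males and 0.18 to 0.56 in females. Of the 31 genes 27 had the same sign in both sexes, and the share over all genes was not taken. No gene of the list was called for a difference between the sexes (0 of 31, limma with adjustment over all genes), where 2 genes of the array (0.00651%) were called. None of the 31 had an unadjusted p under 0.05, where 1305 genes of the array did. With 2 mice a sex and genotype this test has little precision.

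The mice differed from one another along the list. Male null 2 was the highest null mouse in 19 of the 31 genes, and in 10 of the 12 called ones. Male WT 2 was the highest WT mouse in 16 of the 31 and in 8 of the 12. The mean of 9 immediate early genes, which respond to handling and acute stress, ran from 6.54 to 6.74 in WT and from 6.49 to 7.40 in null mice, and male null 2 was the highest there too. The list had a median difference of 0.32, 8 of the 9 genes lay above 0, 4 had an unadjusted p under 0.05 and 1 was called higher (Zfp36, 0.39, adjusted p = 0.0328; a call kept only without female WT 1 or female null 2 among the fits that left out 1 mouse). The part of this list in the results was not tested. Without male null 2, 9 of the 12 genes were still called, and these 9 (Sesn2, Calr, Pdia6, P4hb, Creld2, Hyou1, Asns, Shmt2 and Mthfd2) kept their call in each of the 8 fits that left out 1 mouse.

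**Figure D5:**
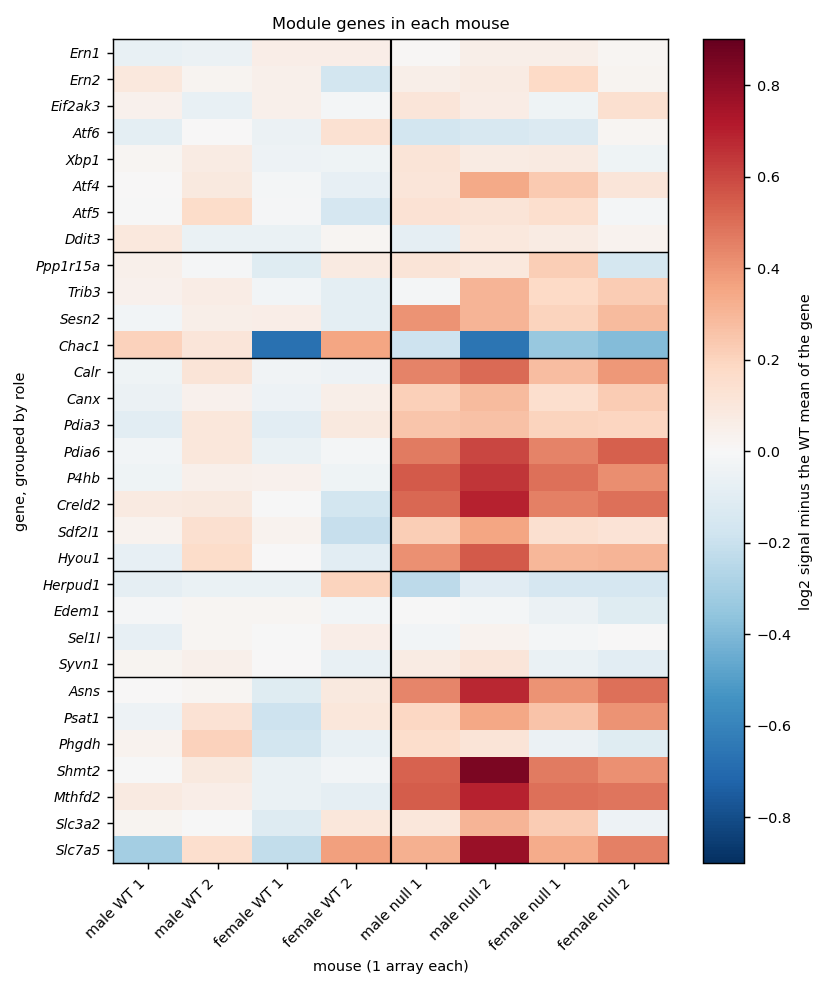
Log2 signal of each mouse minus the gene's WT mean (colour scale) for the 31 genes, in rows grouped by role. The null columns stand above the WT mean in the rows of the 12 called genes, male null 2 the highest null mouse in 10 of them, and in the degradation rows Herpud1 stands below it in all 4 null mice.

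Markers of other cell types also differed between the groups. Skeletal muscle genes were lower in 17 of 20 (7 to 18 without 1 mouse), with a median of -0.88 and array means of 8.61 to 9.39 in WT and 7.86 to 8.41 in null skin. With that mean as a covariate, 0 of the 12 genes kept their call (adjusted p from 0.0531 to 0.977; 9 of 12 with an unadjusted p under 0.05). All 12 stayed above 0. Their median difference was 0.42 there, against 0.45 as reported, and their median SE 0.11, against 0.06. Pdia3 stood at 0.09 and Psat1 at 0.02. Over all 31 genes the median was 0.08 with the covariate, against 0.17, and among the uncalled genes Slc7a5 stood at 0.01 and Chac1 at -1.004. Muscle mean and sex together account for 71.9% of the variance of the genotype term, so the fit has little left to estimate it from. Of 24 named genes of the other pathway lists 2 kept their calls there, Hspa5 (0.66, adjusted p = 0.0325) and Ero1a (0.95, adjusted p = 0.0438). The other 22 lost theirs, with adjusted p from 0.0514 (Aldh1l2) to 0.958 (Vldlr), and 24 of 24 kept their sign. Among those lost were Hsp90b1 (adjusted p = 0.0628), Dnajb11 (0.072), Lars (0.0955), Nars (0.154), Sec62 (0.156) and Vcp (0.237). In 7 the difference shrank by over 1.5 times: Slc7a11 to 0.37, Rars to 0.25, Ppp1r15b to 0.22, Rpn1 to 0.09, Slc1a4 to -0.18, Got1 to -0.11 and Vldlr to -0.03. That of Sesn1 grew to -0.68.

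Plasma cells, which secrete antibody and run a high folding load, left little signal: 8 of their 10 markers were at or under the median of the negative controls, the array means were 4.16 to 4.44 in WT and 4.25 to 4.40 in null skin, and 0 were called by limma (1 with an unadjusted p under 0.05). Of 14 eccrine gland markers 1 was higher and 2 lower, with array means of 6.42 to 6.71 and 6.42 to 6.66. Of 9 sebaceous markers 6 were lower (6.98 to 7.51 against 6.67 to 6.83), and of 8 fibroblast markers 2 (Dpt and Dcn; 8.40 to 8.80 against 8.11 to 8.68). The 6 became 3 to 6 without 1 mouse. The 2 became 0 in 5 of those fits (leaving out female null 1, female null 2, female WT 1, male null 2 or male WT 1) and under a robust prior. Of 12 macrophage markers 1 was higher and 2 lower (6.41 to 7.02 against 5.97 to 6.59), and of 9 adipocyte markers 2 were lower (5.47 to 6.15 against 5.27 to 5.56). Without 1 mouse the macrophage calls ranged from 0 to 1 higher and from 0 to 7 lower (7 without male null 1, 0 without female null 1), and the adipocyte calls from 0 to 1 higher and from 1 to 2 lower. Of 9 T cell markers 3 were higher (2 to 4 without 1 mouse), at dim array means of 3.96 to 4.10 in WT and 4.28 to 4.37 in null skin. Of these 9 markers 7 lay at or under the highest negative control median. Of 11 neutrophil markers 1 was higher (1 to 4 without 1 mouse), and 5 lay at or under that median. Their array means were 4.17 to 5.71 in WT and 4.36 to 4.88 in null skin, so the highest WT mean exceeded every null mean. The part of these cell types in the results was not tested.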

How the data were processed

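RNA from paw skin of 8 mice was measured on Affymetrix arrays, 1 a mouse. The deposited log2 signals were made by the authors with robust multi-array averaging in Partek, per the submitters' processing notes; the versions and settings used are not stated there. Of 72688 probe sets 6732 are controls, and 31219 of the others name exactly 1 gene. A gene was taken from its brightest probe set, which left 30736 genes. Signals run from 1.36 to 13.6 and array medians from 4.04 to 4.09; the medians of negative controls lie between 4.26 and 4.46.

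Null and WT mice were compared with limma 3.58.1 under R 4.3.3 (a linear model with sex as covariate, eBayes with trend, 5 residual degrees of freedom), with Benjamini-Hochberg adjustment over all genes and a threshold of 0.05. Sex-specific differences came from a fit of 4 group means. Deviations from the group mean correlated between mice of 1 replicate number at 0.313 in males and 0.113 in females, and the number was also used as a block. The mice of a sex and genotype lie at equal distances on either side of their mean, so the opposite pairing gives the same correlations with a minus sign. These values therefore cannot show that mice of 1 number go together. The labels do not say that such mice share a litter or day. Motifs were searched with Python 3.11.15 in RefSeq promoter windows of GRCm38.p6. The named genes were all measured members and, from each other list, the called genes with the largest differences. The members and lists were chosen with earlier results of these data known. Alternatives were no sex term, filters on dim genes, a further quantile normalization, centring on the median gene, averaged probe sets, all probe sets, no intensity trend, a robust prior, array weights, the block, the muscle covariate and leaving out each mouse.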

Additional observations from a re-analysis of the deposited data

Results flagged for a closer look

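Of 110 groups of 4 mice checked for a single mouse far from the others, 5 stood out, where chance picks about 1 in 20. Among WT mice, Calr was high in male WT 2 at 8.94, with the others from 8.78 to 8.79, and Herpud1 was high in female WT 2 at 8.06, with the others from 7.78 to 7.80. Outside the list, Ssr3 was high in female WT 2 at 8.02 (others 7.89 to 7.91) and Slc43a1 in male WT 2 at 5.79 (others 5.68 to 5.69). Among null mice, Slc7a11 was low in male null 1 at 7.44 (others 7.95 to 7.99).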

How the results depend on the processing

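Leaving out 1 mouse in turn gave 9 to 13 of the 31 genes called higher and 0 to 1 called lower (Chac1, without female WT 1). Over all genes, 1198 to 2284 were called higher and 829 to 1856 lower, with 1310 and 1066 without male WT 1, 1198 and 829 without male null 2, 1229 and 838 without female null 1, and 1098 lower without female null 2. In these fits 14 to 19 genes of the list did not overlap between the groups. The share over all genes was not taken there, and with 1 mouse fewer any gene separates more readily. A repeated quantile normalization left 12 non-overlapping genes of the list and median centring 13, against 14 as reported, again without the share over all genes. Of all calls on the array 54.2% were higher as reported and 48.5% after that normalization. With the muscle mean as covariate 0 genes of the list, and 243 higher and 132 lower genes of the array, were called. The replicate block gave 15 called genes, adding Atf4, Sdf2l1 and Slc7a5, and changed no other call of the list. Whether mice of the same replicate number belong together is not known, so the calls added by the block are no further support. Array weights also gave 15 with the same additions, and both filters on dim genes 13, adding Sdf2l1. Without the sex term, without the intensity trend, with a robust prior or with averaged probe sets, the same 12 genes were called. Canx, Pdia3 and Psat1 lost their calls under a repeated quantile normalization and under median centring (9 called each), and Pdia3 and Psat1 with all probe sets tested (10). Within the list, signs turned in 6 uncalled genes and in no called one. Phgdh went to -0.0154 under quantile normalization, to -0.0773 with the muscle mean and from -0.0041 to 0.0666 without 1 mouse. Sel1l went to 0.00067 centred, to 0.0127 with array weights and from -0.025 to 0.018 without 1 mouse. The muscle mean took Ddit3 to -0.0637, Ppp1r15a to -0.0859 and Slc3a2 to -0.0537. Without 1 mouse Ppp1r15a ran from -0.0051 to 0.15 and Syvn1 from -0.0109 to 0.0307. The cause was not tested. With 4 arrays a group, small differences such as those of Ern2 and Trib3 could not be resolved here.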
